A study of Mus musculus with 37 samples.

Results

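Trabecular genes and neuregulin signalling are represented here by 7 genes, chosen by symbol in a raw count table of 25239 genes from mouse embryonic hearts. They are Nppa, Nppb, Bmp10 and Gja5, which mark or drive the growth of trabeculae, and Nrg1, Erbb2 and Erbb4, a ligand and its receptors. All 7 symbols were in the table, and all 7 were among the 15046 genes that passed the filter on low counts. The data are bulk RNA sequencing of 37 whole hearts of E10.5 embryos. Fathers carried Stra8-iCre, a germline Cre recombinase, and 1 floxed Nipbl allele, so their sperm held either the floxed allele, which acts as wild type, or its null form, Nipbl FIN. Mothers were Isl1 Cre/+, in which Cre sits in 1 allele of Isl1 and leaves a single working copy. The groups were 10 wild-type hearts (Nipbl +/+; Isl1 +/+), 9 Isl1 +/- hearts, 9 Nipbl +/- hearts and 9 double heterozygous hearts (Nipbl +/-; Isl1 +/-). All Isl1 +/- embryos therefore also carry a Cre knocked in at Isl1, and the wild-type embryos come from the same cross. The description labels also give each heart a number after the letters IVF, here called its set number. Set number was a factor in every fit except the alternatives described as fits without it.

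Trabeculae are the muscular ridges that grow from the inner face of the early ventricle. Endocardial cells release neuregulin 1 (Nrg1), which binds ErbB4 on the muscle cells; ErbB4 pairs with ErbB2, which has no ligand of its own, and the pair signals for trabecular growth. Bmp10 is a trabecular growth factor that keeps muscle cells dividing. Nppa and Nppb encode natriuretic peptides of stretched or young muscle, and Gja5 encodes connexin 40, a gap junction protein of trabeculae and of endothelium.

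The libraries held 23.4 to 51.0 M counts (median 36.2 M, with M for mega). Nipbl was lower in Nipbl +/- hearts (log2 change -0.74, SE 0.12, edgeR adjusted p = 0.000348) and in double heterozygous hearts (-0.82, SE 0.12, adjusted p = 7.19e-05) than in wild-type hearts. In the library labelled Nipbl +/- replicate 2, however, Nipbl was at 72.4 CPM (counts scaled to a fixed library total), against 27.1 to 44.9 in the other 8 of that label and 47.6 to 78.8 in wild-type hearts. That library also stood apart on the first principal component, at 114, where the highest of the other 36 was at 21.0. It held Vegfa at 1310 CPM, where the highest other library had 224 CPM. Main results that it moves most are given with and without it. Isl1 did not check the Isl1 labels: it was at 7.37 ± 2.24 CPM (SD, n = 10) in wild-type and 6.28 ± 1.76 CPM (n = 9) in Isl1 +/- hearts (edgeR adjusted p = 0.877), and the counts do not say which allele reads come from. It was higher in Nipbl +/- hearts (13.0 ± 2.82 CPM, log2 change 0.79, SE 0.19, edgeR adjusted p = 0.0252), and double heterozygous hearts, which also carry 1 working Isl1 copy, were at 9.50 ± 3.51 CPM (0.32, adjusted p = 0.591). All 8 cardiomyocyte markers and all 7 endocardial markers were above 0 in every library, as the heart label requires. Set number was itself associated with 5745 of the genes tested (38.2%), and sets 1 and 7 do not hold all genotypes: set 1 has 3 wild-type and 3 Isl1 +/- hearts, and set 7 a single double heterozygous heart.

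None of the 7 genes passed an adjusted p of 0.05 in any of the 8 comparisons of genotypes by edgeR's quasi-likelihood test. Nppb and Nppa had their lowest group means in Nipbl +/- hearts, and means near the wild-type level in double heterozygous hearts. Gja5 had a log2 change of -0.31 with loss of 1 Nipbl copy once set was fitted, with an adjusted p near the threshold. Bmp10, Erbb4, Gja5 and Erbb2 differed between sets by the edgeR test of the set term; Nppb passed that test only without the library labelled Nipbl +/- replicate 2 (adjusted p = 0.0429, and 0.134 with it). The labels do not say which hearts share a litter, so the p-values measure the spread between these hearts only.

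**Figure D1:**
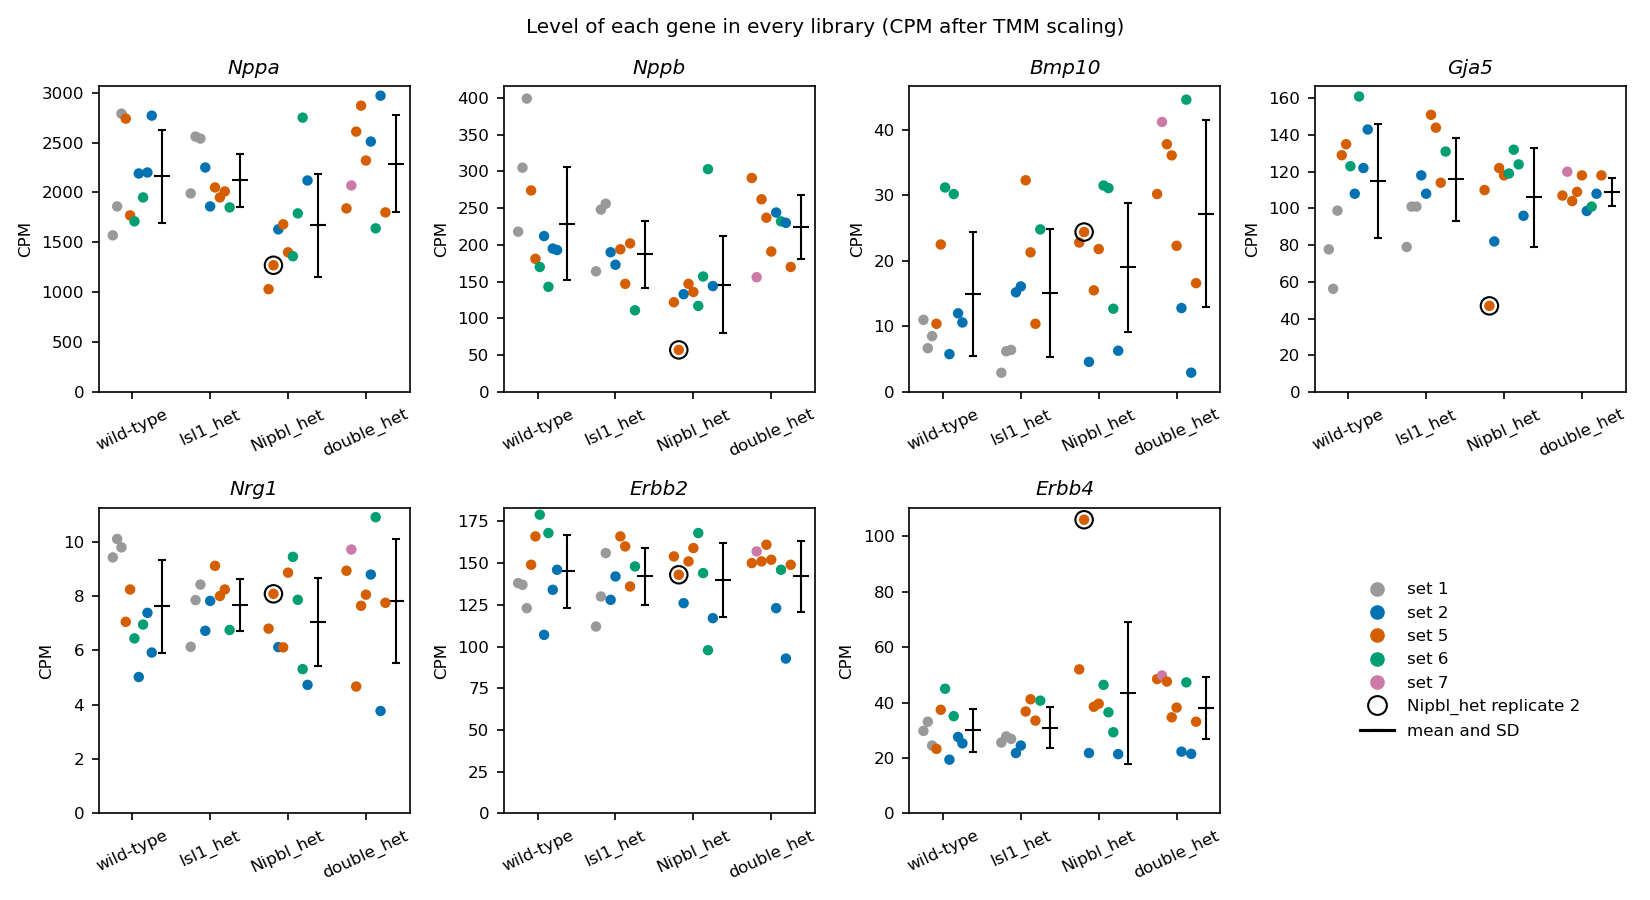
Level of each gene (y axis, CPM after TMM scaling, starting at 0) in every library, grouped by genotype on the x axis (Isl1_het is Isl1 +/-, Nipbl_het is Nipbl +/-, double_het is Nipbl +/-; Isl1 +/-). Points are single hearts coloured by set, bars are the mean and SD, and the ringed point is the library labelled Nipbl +/- replicate 2, which was lowest of all for Nppb and Gja5 and highest of all for Erbb4.

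The 2 natriuretic peptide genes are neighbours. Nppb lies at chr4:147985788-147987205 and Nppa at chr4:148000722-148002079, both on the plus strand of GRCm38, with 13516 bases and no other annotated gene between them (GENCODE M21). Their promoters are printed because these 2 genes are neighbours and varied together from heart to heart. That is not particular to this pair. Log2 levels, less genotype and set means, had r = 0.61 here and r = 0.68 for Bmp10 and Erbb2. The windows run from 250 bases before to 50 after the RefSeq start (GRCm38.p6, plus strand, chr4:148000472-148000771 and chr4:147985650-147985949), and capitals mark the motifs searched.
Nppa: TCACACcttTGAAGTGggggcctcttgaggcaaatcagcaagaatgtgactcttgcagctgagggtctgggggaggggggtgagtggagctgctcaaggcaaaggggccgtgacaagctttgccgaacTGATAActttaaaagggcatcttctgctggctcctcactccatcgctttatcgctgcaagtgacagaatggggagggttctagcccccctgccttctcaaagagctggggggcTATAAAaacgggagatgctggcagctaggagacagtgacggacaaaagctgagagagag
Nppb: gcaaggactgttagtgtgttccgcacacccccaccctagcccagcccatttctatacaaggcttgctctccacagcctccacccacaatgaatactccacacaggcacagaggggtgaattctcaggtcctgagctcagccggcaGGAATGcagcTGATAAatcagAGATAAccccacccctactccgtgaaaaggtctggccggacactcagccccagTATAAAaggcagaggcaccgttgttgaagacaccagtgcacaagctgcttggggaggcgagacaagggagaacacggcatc

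Letters searched on both strands were GTGTGA for a T-box element, TNAAGTG for an NKX2-5 element, AGATAA and TGATAA for GATA sites, CATTCC for a TEAD element and TATAAA for a TATA box. These are binding letters of factors that act in the early heart, or of the general machinery in the last case. The Nppa window held TCACAC (the T-box letters on the minus strand) 250 bases before the start, TGAAGTG 241 bases before, TGATAA 122 bases before and TATAAA 9 bases before. The Nppb window held GGAATG (the TEAD letters on the minus strand) 105 bases before the RefSeq start, TGATAA 95, AGATAA 84 and TATAAA 31 bases before. For Nppb the RefSeq start lies downstream of the GENCODE start given above, so these matches fall inside the GENCODE span of the gene. No match overlapped another. Of all 32851 RefSeq promoter windows of this length, 14.5% held the T-box letters, 11.5% the NKX2-5 letters, 11.2% AGATAA, 9.05% TGATAA, 14.7% the TEAD letters and 13.6% TATAAA, so single matches are common. Both windows shared TGATAA and TATAAA. Windows for 6 of the 7 genes were matched; Bmp10 held AGATAA at 2 places, Erbb2 held GGAATG once, and the windows of Gja5 and Erbb4 held none of these letters.

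Nppa, which encodes atrial natriuretic peptide, ranked 9 of 24366 genes by TPM (counts per exon length, scaled to a fixed total per library), at 6940 ± 1340 TPM (SD, n = 10) in wild-type hearts. Its level there was 2160 ± 465 CPM, with a lowest, median and highest heart of 1570, 2070 and 2790 CPM. Isl1 +/- hearts were at 2120 ± 270 CPM (n = 9; 1850, 2010 and 2560). The wild-type range held every Isl1 +/- heart. Nipbl +/- hearts were at 1670 ± 516 CPM (n = 9; 1030, 1630 and 2750). In that group 4 of 9 hearts were below every wild-type heart and 8 of 9 below the wild-type mean, while the ranges overlapped. Double heterozygous hearts were at 2290 ± 482 CPM (n = 9; 1640, 2320 and 2970), with 2 of 9 above every wild-type heart. In a bulk sample, fewer cells of a type and less RNA per cell cannot be told apart, which holds for all levels given here. Exons of Nppa share 532 bases with Gm13054 on the opposite strand, which has no row in the count table.

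Nppb, which encodes B-type natriuretic peptide, was at 811 ± 223 TPM in wild-type hearts and ranked 191 of the 24366 genes. Wild-type hearts had 229 ± 76.5 CPM (n = 10; lowest, median and highest 143, 203 and 399). Isl1 +/- hearts had 187 ± 45.9 CPM (n = 9; 111, 190 and 256). Most Isl1 +/- hearts lay within the wild-type range, with 1 of 9 below it. Their difference from wild type in mean log2 CPM within sets 1, 2, 5 and 6 was -0.45, -0.14, -0.31 and -0.49. For Nppa the same differences were 0.22, -0.21, -0.14 and 0.02. Set 6 holds 1 Isl1 +/- heart. Nipbl +/- hearts had 146 ± 65.5 CPM (n = 9; 57.2, 136 and 303), with 5 of 9 below every wild-type heart and 8 of 9 below the wild-type mean. Double heterozygous hearts had 224 ± 43.5 CPM (n = 9; 156, 232 and 291), none of them below the wild-type range. The 57.2 CPM belonged to the library labelled Nipbl +/- replicate 2; without it the group was at 157 ± 60.3 CPM (n = 8). The 303 CPM belonged to Nipbl +/- replicate 8, which was also the highest of its group for Nppa.

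Against wild-type hearts, Nipbl +/- hearts had 0 of 7 members past the threshold, where 258 of 15046 genes (1.71%; 1.2% higher and 0.518% lower) passed, and 3 members were under an unadjusted p of 0.05, where 15.1% of all genes were. DESeq2 also called 0 members. Nppb had a log2 change of -0.46 (SE 0.20, 95% interval -0.86 to -0.06, edgeR adjusted p = 0.256), and Nppa one of -0.31 (SE 0.15, -0.61 to 0.00, adjusted p = 0.323). Within sets, the difference in mean log2 CPM for Nppb was -0.53 in set 2 (2 Nipbl +/- against 3 wild-type hearts), -1.03 in set 5 (4 against 2) and 0.18 in set 6 (3 against 2). For Nppa it was -0.35, -0.74 and 0.05 in the same sets. The set 5 values were -0.72 for Nppb and -0.71 for Nppa without the library labelled Nipbl +/- replicate 2, which is in that set. Both genes were thus lower in sets 2 and 5 and not in set 6, the set that holds replicate 8. With set 6 left out, Nppb was at -0.82 (edgeR adjusted p = 0.0248) and Nppa at -0.51 (adjusted p = 0.0937). Without replicate 8 alone, Nppb was at -0.65 (edgeR adjusted p = 0.0256). With set 5 left out, Nppb was at -0.11 and Nppa at -0.04, and without the library labelled replicate 2 they were at -0.34 (edgeR adjusted p = 0.379) and -0.27 (adjusted p = 0.447). Over the 37 fits that leave out 1 library, the adjusted p of Nppb ran from 0.0256 to 0.447 and that of Nppa from 0.0733 to 0.571.

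Muscle markers were compared in the same hearts. The 3 ventricular markers (Myl2, Myl3, Irx4) summed to a median of 4750 CPM in Nipbl +/- hearts (3160 to 8020) and 7500 CPM in wild-type hearts (4210 to 9410), with none at 0 in any library. The same sum had a median of 4670 CPM in double heterozygous hearts (3690 to 9050). The sum of 8 cardiomyocyte markers had medians of 32700 CPM in Nipbl +/- hearts (28600 to 36200) and 37400 CPM in wild-type hearts (28800 to 44300). With the cardiomyocyte level as a covariate the Nipbl +/- change was -0.42 for Nppb and -0.19 for Nppa. After removal of genotype and set means, the correlation with the mean ventricular marker was r = 0.62 for Nppa and r = 0.66 for Nppb over 37 libraries, which share depth and composition. The part of ventricular tissue in the difference was not tested.

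Double heterozygous hearts were compared with Nipbl +/- hearts to ask what loss of 1 Isl1 copy adds to loss of 1 Nipbl copy. Nppb had a log2 difference of 0.69 (SE 0.20, 95% interval 0.28 to 1.10, unadjusted p = 0.00166, edgeR adjusted p = 0.412) and Nppa one of 0.48 (SE 0.16, 0.17 to 0.80, unadjusted p = 0.0038, edgeR adjusted p = 0.413). No member of 7 passed, and no gene of 15046 did (0%) by edgeR or DESeq2, while 9.01% of all genes and 2 members were under an unadjusted p of 0.05. Within sets 2, 5 and 6 the difference in mean log2 CPM was 0.77, 1.05 and 0.39 for Nppb and 0.56, 0.77 and -0.20 for Nppa. Set 6 holds a single double heterozygous heart, and without the library labelled Nipbl +/- replicate 2 the set 5 values were 0.75 and 0.74. With set 5 left out the fitted differences were 0.43 for Nppb and 0.20 for Nppa (edgeR adjusted p = 1 for both). Without the library labelled Nipbl +/- replicate 2 the differences were 0.54 for Nppb and 0.42 for Nppa, and without replicate 8 they were 0.85 (edgeR adjusted p = 0.156) and 0.58 (adjusted p = 0.249). Over the fits that leave out 1 library, Nppb ran from 0.54 to 0.85. Erythroid markers, which mark red blood cells, were compared in the same hearts: their sum had a median of 15300 CPM in double heterozygous (1310 to 54100) and 6750 CPM in Nipbl +/- hearts (488 to 23400), and 0 of 6 tested passed by edgeR or DESeq2 although all 6 were under an unadjusted p of 0.05 (median log2 difference 1.53, and 1.33 without the library labelled Nipbl +/- replicate 2). With the erythroid level as a covariate the differences were 0.64 for Nppb and 0.46 for Nppa (edgeR adjusted p = 0.942 for both).

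The interaction asks whether the double heterozygous level departs from the sum of both single changes on the log2 scale. For Nppb the departure was 0.97 (SE 0.27, 95% interval 0.42 to 1.51, unadjusted p = 0.00102, edgeR adjusted p = 0.999), and for Nppa 0.49 (SE 0.21, 0.07 to 0.91, unadjusted p = 0.0244, edgeR adjusted p = 0.999). The fitted single changes of Nppb were -0.28 for Isl1 +/- (SE 0.18) and -0.46 for Nipbl +/-, and the double heterozygous change was 0.23 (SE 0.20). No member and no gene of 15046 (0%) passed by edgeR or DESeq2, and 2.73% of all genes were under an unadjusted p of 0.05, as were 2 of 7 members. Without the library labelled Nipbl +/- replicate 2 the departure was 0.84 for Nppb and 0.45 for Nppa, and with set 5 left out it was 0.76 and 0.19. All these comparisons use the same Nipbl +/- libraries, so the low Nppb level of that group enters each of them.

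**Figure D2:**
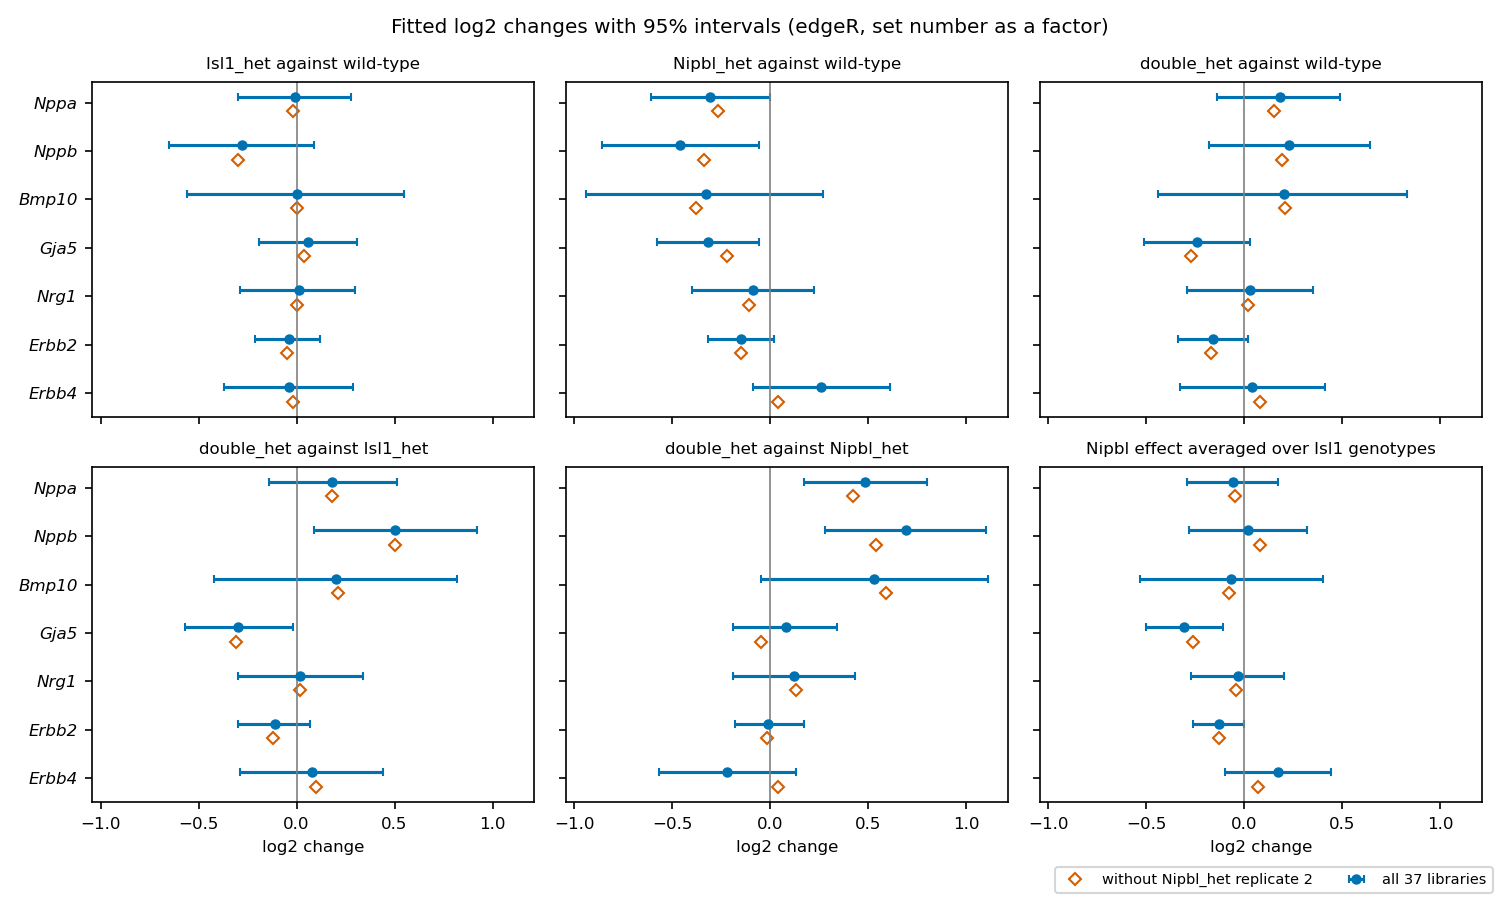
Fitted log2 changes (x axis) of the 7 genes (y axis) in 6 comparisons of genotypes, with 95% intervals as bars; group names are as in the plot of levels. Open diamonds are the same changes without the library labelled Nipbl +/- replicate 2; Nppb is at -0.46 in Nipbl +/- against wild-type hearts and at 0.69 in double heterozygous against Nipbl +/- hearts, and Erbb4 moves from 0.26 to 0.04 in the first of these without that library.

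Heart by heart, Nppa and Nppb varied together: their log2 levels, less genotype and set means, had r = 0.61 over 37 libraries and r = 0.63 without the library labelled Nipbl +/- replicate 2. The ratio of Nppa to Nppb CPM was 9.98 ± 2.71 in wild-type (n = 10), 11.7 ± 2.17 in Isl1 +/- and 12.4 ± 4.08 in Nipbl +/- hearts (n = 9 each), and its median was 10.6 in double heterozygous hearts (6.34 to 13.3). The highest Nipbl +/- ratio, 22.1, was that of the library labelled Nipbl +/- replicate 2, without which the group was at 11.2 ± 1.95 (n = 8). The genes most like Nppb in the same residuals, among 12079 compared, were Ankrd1 (r = 0.90), a cardiac ankyrin repeat protein, Tnfrsf12a (0.86) and Gm11627 (0.81). Those most like Nppa were Gng11 (0.86), S100a1 (0.86), a calcium-binding protein of muscle, and Erp29 (0.85). No gene was nearest to both.

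**Figure D3:**
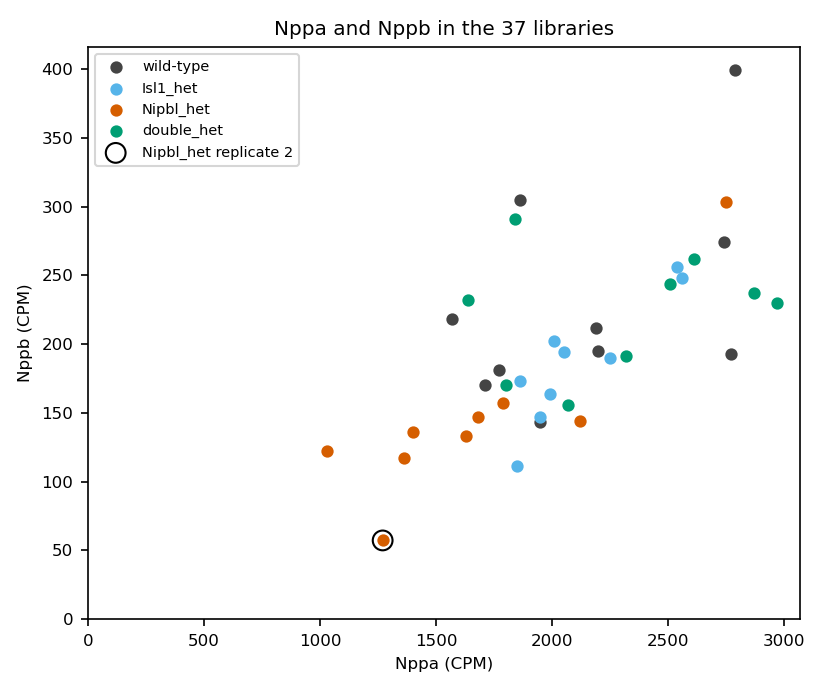
Nppb (y axis, CPM) against Nppa (x axis, CPM) in the 37 libraries, coloured by genotype, with group names as in the plot of levels. Most Nipbl +/- hearts sit at the lower left, the ringed library labelled Nipbl +/- replicate 2 is lowest for Nppb at 57.2 CPM, and replicate 8 of that group is at 2750 CPM for Nppa and 303 CPM for Nppb.

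Gja5 encodes connexin 40 and lies at chr3:96904693-97077416 (GRCm38, plus strand). It was at 57.5 ± 20.5 TPM in wild-type hearts and ranked 2626 of 24366. In CPM, wild-type hearts had 115 ± 31.1 (n = 10; lowest, median and highest 56.2, 123 and 161) and Isl1 +/- hearts 116 ± 22.6 (n = 9; 79.0, 114 and 151). Nipbl +/- hearts had 106 ± 26.9 CPM (n = 9; 46.9, 118 and 132), and double heterozygous hearts 109 ± 7.75 CPM (n = 9; 98.6, 108 and 120). The groups overlapped fully in raw level, apart from the 46.9 CPM of the library labelled Nipbl +/- replicate 2. Without that library the Nipbl +/- group was at 113 ± 16.5 CPM (n = 8). Double heterozygous hearts were the most alike, with a coefficient of variation of 7.08% against 27.0% in wild-type hearts. Set make-up differs between these groups. Set 1, with 3 wild-type hearts at 56.2 to 98.8 CPM, holds no double heterozygous heart. Wild-type hearts of the other sets ran from 108 to 161 CPM.

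Wild-type Gja5 differed by set, at 77.6 CPM in set 1 (n = 3), 124 in set 2 (n = 3), 132 in set 5 (n = 2) and 142 in set 6 (n = 2), and set 1 holds no hearts with loss of Nipbl. With set fitted, the change was -0.32 in Nipbl +/- hearts (SE 0.13, 95% interval -0.58 to -0.06, edgeR adjusted p = 0.22). It was -0.22 without the library labelled Nipbl +/- replicate 2. In double heterozygous hearts the change was -0.24 against wild-type hearts (SE 0.13, adjusted p = 0.532) and -0.30 against Isl1 +/- hearts (SE 0.14, edgeR adjusted p = 0.567). Without the library labelled Nipbl +/- replicate 2 these edgeR adjusted p-values were 0.0901 and 0.0958. The difference from wild type within sets 2, 5 and 6 was -0.48, -0.51 and -0.17 in Nipbl +/- hearts, and -0.26, -0.25 and -0.47 in double heterozygous hearts, so it was below 0 in each. The Nipbl +/- value in set 5 was -0.18 without the library labelled Nipbl +/- replicate 2 (3 against 2 hearts).

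Averaged over both Isl1 genotypes, loss of 1 Nipbl copy gave Gja5 a change of -0.31 (SE 0.10, 95% interval -0.50 to -0.11, edgeR adjusted p = 0.0711). In that comparison 0 of 7 members passed, where 605 of 15046 genes (4.02%; 2.67% higher and 1.36% lower) did; 2 members, Gja5 and Erbb2, were under an unadjusted p of 0.05, where 14.9% of all genes were. DESeq2 called Gja5 (-0.32, adjusted p = 0.0358), and so did edgeR without the library labelled Nipbl +/- replicate 2 (-0.26, adjusted p = 0.0152). The fit without set gave -0.11 (edgeR adjusted p = 0.521), and the fit with the cardiomyocyte level as a covariate gave -0.23 (adjusted p = 0.249). Over all fits that leave out 1 library, the adjusted p ran from 0.0152 to 0.158. Exons of Gja5 share 165 bases with Gpr89 on the opposite strand, which was at 15.6 ± 1.40 CPM in wild-type hearts (n = 10); the strand setting of the counting is not given in the sources used here, so reads there cannot be told apart. The genes nearest to Gja5 were Zadh2, Aldh1b1 and Bmx (r = 0.91, 0.86 and 0.85), at 0.81, 0.71 and 0.67 without that library.

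Bmp10 lies at chr6:87428994-87437677 (GRCm38, plus strand) and was at 10.0 ± 7.49 TPM in wild-type hearts, rank 7376. Wild-type hearts had 14.9 ± 9.49 CPM (n = 10; lowest, median and highest 5.77, 10.8 and 31.2) and Isl1 +/- hearts 15.1 ± 9.71 CPM (n = 9; 2.93, 15.2 and 32.3). Nipbl +/- hearts had 19.0 ± 9.86 CPM (n = 9; 4.59, 21.8 and 31.5), and double heterozygous hearts 27.2 ± 14.3 CPM (n = 9; 2.94, 30.2 and 44.6). It was the most variable of the 7 genes in wild-type hearts, with a coefficient of variation of 63.8% where the median gene had 17.2%. Although 4 of 9 double heterozygous hearts were above every wild-type heart, the lowest was below all of them.

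The set of a heart went with most of this spread. Bmp10 averaged 6.95 ± 2.67 CPM in set 1 (n = 6), 9.60 ± 4.83 in set 2 (n = 9), 23.2 ± 8.55 in set 5 (n = 14) and 29.4 ± 9.51 in set 6 (n = 7), and the set 7 heart had 41.2 CPM. Every heart of sets 1 and 2 was at 16.1 CPM or less. The term for set had an edgeR adjusted p of 5.46e-05 for Bmp10. With set fitted, the Bmp10 change was 0.20 in double heterozygous hearts (SE 0.31, 95% interval -0.44 to 0.83, edgeR adjusted p = 0.873) and -0.33 in Nipbl +/- hearts (SE 0.30, -0.94 to 0.27, adjusted p = 0.629). Without the set term the second was 0.35, the opposite sign. These intervals are the widest of the 7 genes in both comparisons. Beyond the IVF number in the labels, what distinguishes the sets is not given in the sources used here. The genes nearest to Bmp10 were Ntn1, Col4a1 and Pcdhgc3 (r = 0.88, 0.87 and 0.87).

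**Figure D4:**
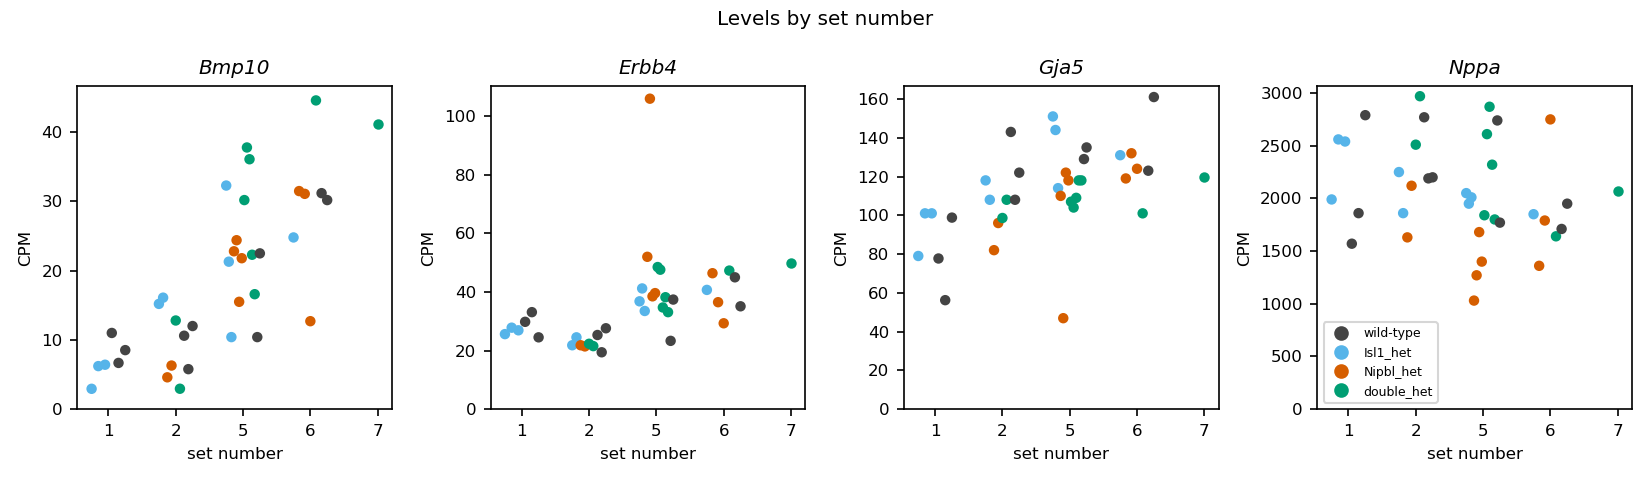
Levels of Bmp10, Erbb4, Gja5 and Nppa (y axes, CPM, starting at 0) by set number (x axis), with points for single hearts coloured by genotype; group names are as in the plot of levels. Bmp10 averages 6.95 CPM in set 1 and 29.4 CPM in set 6, Erbb4 22.8 CPM in set 2 and 43.6 CPM in set 5 (38.8 CPM without the library labelled Nipbl +/- replicate 2), while Nppa lies at 1870 to 2280 CPM on average in every set.

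Nrg1, the ligand, lies at chr8:31814551-32884029 on the minus strand of GRCm38. It had the lowest level per length of the 7 genes, at 2.10 ± 0.572 TPM in wild-type hearts, rank 11705. Wild-type hearts had 7.63 ± 1.71 CPM (n = 10; lowest, median and highest 5.02, 7.21 and 10.1) and Isl1 +/- hearts 7.67 ± 0.951 CPM (n = 9; 6.13, 7.85 and 9.11). Nipbl +/- hearts had 7.04 ± 1.62 CPM (n = 9; 4.73, 6.80 and 9.44), and double heterozygous hearts 7.80 ± 2.28 CPM (n = 9; 3.77, 8.05 and 10.9). The 4 groups overlapped throughout. Fitted changes against wild type were 0.01 in Isl1 +/- hearts (95% interval -0.29 to 0.30), -0.09 in Nipbl +/- hearts (-0.40 to 0.22) and 0.03 in double heterozygous hearts (-0.29 to 0.35). Nrg1 was nearest to Klhl21, Fblim1 and Vcl (r = 0.78, 0.73 and 0.71); Vcl encodes vinculin of cell adhesions. Its exons share 482 bases with an opposite-strand transcript, Gm26578, that has no row in the count table.

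Erbb2, the co-receptor, lies at chr11:98412470-98437716 (GRCm38, plus strand) and was at 80.2 ± 23.1 TPM, rank 1881. Its level was 145 ± 21.9 CPM in wild-type hearts (n = 10; lowest, median and highest 107, 142 and 179), 142 ± 17.3 in Isl1 +/- hearts (n = 9; 112, 142 and 166), 140 ± 22.3 in Nipbl +/- hearts (n = 9; 97.8, 144 and 168) and 142 ± 21.5 in double heterozygous hearts (n = 9; 92.8, 150 and 161). The group means lay within 5 CPM of each other. Fitted changes were -0.04 (95% interval -0.21 to 0.12), -0.15 (-0.32 to 0.02) and -0.16 (-0.34 to 0.02) for those 3 genotypes against wild type, and these are the narrowest intervals of the 7 genes. By set, Erbb2 averaged 124 CPM in set 2 and 153 CPM in set 5 (edgeR adjusted p for set 0.00443). It went with Bmp10 in the residuals (r = 0.68, n = 37), and its nearest genes were Tmem94, Sptan1 and Nisch (r = 0.93, 0.93 and 0.92).

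Erbb4, the receptor that binds neuregulin, lies at chr1:68032186-69108059 on the minus strand of GRCm38 and was at 7.11 ± 2.76 TPM, rank 8668. Wild-type hearts had 30.0 ± 7.68 CPM (n = 10; lowest, median and highest 19.4, 28.7 and 45.0) and Isl1 +/- hearts 31.0 ± 7.27 CPM (n = 9; 21.8, 27.8 and 41.2). Nipbl +/- hearts had 43.5 ± 25.7 CPM (n = 9; 21.4, 38.5 and 106), and double heterozygous hearts 38.1 ± 11.1 CPM (n = 9; 21.5, 38.2 and 49.8). The library labelled Nipbl +/- replicate 2 alone was at 106 CPM; the other 8 were at 35.7 ± 11.0 CPM, none above 52.0. Sets differed, with 22.8 ± 2.49 CPM in set 2 (n = 9), 43.6 ± 19.5 in set 5 (n = 14) and 49.8 in the single heart of set 7 (edgeR adjusted p for set 0.000832). Without that library, set 5 was at 38.8 ± 7.50 CPM (n = 13), and the edgeR adjusted p for set was 4e-06. With set fitted the Nipbl +/- change was 0.26 (SE 0.17, 95% interval -0.09 to 0.61), which did not pass, and 0.04 without that library (SE 0.11, edgeR adjusted p = 0.926). The double heterozygous change was 0.04 (SE 0.18, 95% interval -0.33 to 0.41, edgeR adjusted p = 0.965). Erbb4 went against the natriuretic peptide genes in the residuals, with r = -0.62 for Nppb and -0.56 for Nppa (-0.42 and -0.61 without that library). Its nearest genes were Qk, Gabpa and Cdc14b (r = 0.94, 0.93 and 0.93), at 0.88, 0.88 and 0.87 without that library.

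In the remaining comparisons no member passed the threshold either. Isl1 +/- against wild-type hearts gave 0 of 7 members and 0 of 15046 genes (0%) past the threshold by edgeR, 11 genes but no member by DESeq2, and 0 members and 5.89% of genes under an unadjusted p of 0.05. Member changes ran from -0.28 (Nppb) to 0.06 (Gja5). Double heterozygous against wild-type hearts gave 0 of 7 members where 391 genes (2.6%; 1.77% higher and 0.824% lower) passed, with changes from -0.24 (Gja5) to 0.23 (Nppb). Double heterozygous against Isl1 +/- hearts gave 0 of 7 where 144 genes (0.957%; 0.532% higher and 0.425% lower) passed; Nppb was at 0.50 (SE 0.20, edgeR adjusted p = 0.417). Averaged over both Nipbl genotypes, loss of 1 Isl1 copy gave 0 of 7 where 26 genes (0.173%; 0.146% higher and 0.0266% lower) passed, and Nppa was at 0.24 (SE 0.11, edgeR adjusted p = 0.368). DESeq2 called no member in these 4 comparisons. The comparisons share libraries and are not independent of each other.

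The other genes of these pathways were taken from 12 lists of 119 genes, of which 115 were tested. In Nipbl +/- hearts the median log2 change of the 115 was 0.01, as for all genes. Of them 2 were lower (1.74%, where 0.518% of all genes were lower) and none higher (where 1.2% were). They were Gja1, which encodes connexin 43, at -0.42 (SE 0.09, edgeR adjusted p = 0.0134), and Mycn, a transcription factor of growing compact muscle, at -0.47 (SE 0.08, adjusted p = 0.000421). In double heterozygous hearts Mycn was lower (-0.50, SE 0.08, edgeR adjusted p = 0.000198), as was Hey2, a compact wall repressor (-0.42, SE 0.11, adjusted p = 0.036). These were again 2 of 115 (1.74%, where 0.824% of all genes were lower), and none was higher, where 1.77% were. No list gene passed in Isl1 +/- hearts by edgeR or DESeq2. There 6 of the 115 (5.22%) were under an unadjusted p of 0.05 by edgeR, where 5.89% of all genes were. Without the library labelled Nipbl +/- replicate 2 the counts of list genes past the threshold were 5 in Nipbl +/- hearts (1 higher, 4 lower) and 4 in double heterozygous hearts (1 higher, 3 lower), where 2.72% and 5.57% of all genes passed.

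Averaged over Isl1 genotypes, no list gene was higher with loss of 1 Nipbl copy, where 2.67% of all genes were. Of the 115, 6 were lower (5.22%, where 1.36% of all genes were lower). Besides Gja1 (-0.39) and Mycn (-0.35) they were Adam10, a protease that sheds membrane ligands (-0.21, SE 0.06, edgeR adjusted p = 0.0338), Pik3r1, a regulatory subunit of phosphoinositide 3-kinase (-0.29, SE 0.07, adjusted p = 0.00671), Pcsk6, a proprotein convertase (-0.40, SE 0.11, adjusted p = 0.0423), and Slit2, a secreted guidance cue (-0.44, SE 0.10, adjusted p = 0.00752). Without the library labelled Nipbl +/- replicate 2 the count was 12, all lower, where 6.93% of all genes passed in either direction. With set 2 left out it was 1. Of the 22 genes that relay ErbB signals, 1 (Pik3r1) passed, with a list median of -0.01, and of 12 inhibitors 0 passed, with a median of 0.02. Without the library labelled Nipbl +/- replicate 2, 2 inhibitors were lower, Spry4 (-0.24, edgeR adjusted p = 0.0298) and Lrig1 (-0.22, adjusted p = 0.0447), and the inhibitor median was -0.04. None of 7 further ErbB ligands tested and neither of the other receptors, Egfr and Erbb3, passed; Hbegf, a heparin-binding ligand, was at 13.3 ± 2.75 CPM in wild-type hearts with a change of -0.06 (SE 0.07). Of 18 BMP receptors, Smads and Id genes 0 passed (median 0.08), and of 11 transcription factors that act on Nppa and Gja5, 0 passed (median -0.02). The 6 other trabecular genes had a median of -0.15, the 4 other heart connexins -0.20 and the 4 compact wall genes -0.21, with 1 gene lower in each list. Without the library labelled Nipbl +/- replicate 2 these medians were -0.12, -0.16 and -0.20. Neuregulin sheddases had a median of -0.12, natriuretic peptide receptors and processing genes -0.16, regulators of trabeculation 0.01, further ErbB ligands 0.02 and other receptors 0.03. The median over all genes was 0.01.

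Of 3 ventricular markers 1 was lower, and of 4 atrial markers 1 was higher, in Nipbl +/- and in double heterozygous hearts, where 0.518% and 0.824% of all genes were lower and 1.2% and 1.77% higher. Without the library labelled Nipbl +/- replicate 2, 2 of the 4 atrial markers were higher in Nipbl +/- hearts, Sln and Nr2f2 (0.61, edgeR adjusted p = 0.016), and the other 3 counts were as before. Irx4, a ventricular transcription factor, was lower in Nipbl +/- (-0.47, SE 0.12, edgeR adjusted p = 0.0326) and in double heterozygous hearts (-0.50, SE 0.13, adjusted p = 0.0241). Sln, an atrial calcium pump regulator, was higher in both (1.84 and 2.23, SE 0.40 and 0.42, edgeR adjusted p = 0.0109 and 0.00168) from a wild-type level of only 0.633 CPM. Of 7 epicardial markers, 5 were higher in double heterozygous hearts, where 1.77% of all genes were, and 1 in Nipbl +/- hearts, where 1.2% were (Wt1, 0.31, SE 0.07, edgeR adjusted p = 0.0178). Without the library labelled Nipbl +/- replicate 2 these counts were 6 and 1. The 7 endocardial markers, the cells that make neuregulin, had summed medians of 583 CPM in wild-type (484 to 645), 586 in Nipbl +/- (453 to 709) and 680 in double heterozygous hearts (510 to 803), and none of the 7 passed against wild type in either by edgeR, although Npr3 did in Nipbl +/- hearts (-0.25) without the library labelled Nipbl +/- replicate 2. The part of these markers in the levels of the 7 genes was not tested.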

How the data were processed

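Whole hearts of 37 embryos were sequenced as paired-end bulk RNA libraries. The authors deposited 1 table of raw counts per gene; the submitters' processing notes name STAR, featureCounts, GRCm38 and mm10, and the annotation, strand setting and filters are not given in the sources used here. Groups came from titles and set numbers from descriptions. Within groups, all 153 pairs of libraries differed by more than sampling noise (smallest chi-square per degree of freedom 7.46).

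Counts were filtered (filterByExpr, minimum count 10, minimum total 15), TMM-scaled and fitted with edgeR 4.0.16 (R 4.3.3; limma 3.58.1) for genotype and set, all 37 libraries together, two-sided. Benjamini-Hochberg adjustment ran over the 15046 genes kept, and calls needed an adjusted p under 0.05. Double heterozygous replicate 2 is alone in set 7 and is fitted exactly, so that group's changes rest on 8 libraries. TPM used GENCODE M21 exon lengths (24366 of 25239 genes matched). Likeness between genes is Pearson's r of log2 CPM (prior count 2) residuals, for genes of mean log2 CPM of at least 1.

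Named were the 7 genes, Nipbl and Isl1 as label checks, list genes past the threshold, up to 4 others per list by highest CPM, and the 3 genes nearest each member. Vegfa, Gpr89, Gm13054 and Gm26578 stand outside that rule and were chosen after their values were seen. The members and lists were chosen with earlier results of these data known. Alternatives were no set term, DESeq2 1.42.0, other size factors and filters, marker covariates, and leaving out each set or library. The fitting code was tested on simulated data.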

Additional observations from a re-analysis of the deposited data

Results flagged for a closer look

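Groups of 9 or 10 hearts were checked for a single heart far from the rest of its group: 28 groups in all (7 genes in 4 genotypes), of which 2 stood out, where chance gives about 1 in 20. Nppb was at 303 CPM in Nipbl +/- replicate 8, where the next heart of that group was at 157 CPM; the gap was 0.596 of the group's range, above Dixon's 95% critical value for 9 samples. Erbb4 was at 106 CPM in the library labelled Nipbl +/- replicate 2, where the next heart was at 52.0 CPM and the gap was 0.639 of the range. Nppb in Nipbl +/- against wild-type hearts was at -0.65 without the first library, and Erbb4 was at 0.04 without the second.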

How the results depend on the processing

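Of 49 alternatives, 37 left out 1 library each. The count of members past the threshold was 0 in each of the 8 comparisons and kept that value in 388 alternative counts. It was 1 in 4 others: Gja5 in the averaged Nipbl effect by DESeq2 and without Nipbl +/- replicate 2, and Nppb in Nipbl +/- against wild-type hearts with set 6 left out and without Nipbl +/- replicate 8 (range over left-out libraries 0 to 1 in both comparisons). The 29 member changes at least 1 SE from 0 were each refitted under the 49 alternatives: 1403 of those refitted values kept their direction and side of the threshold, 4 newly passed it and 14, on 8 of the 29 changes, had the other sign, none of them past the threshold. Without the set term these were Bmp10 in Nipbl +/- against wild type (0.35), Nppb in double heterozygous against wild type (-0.03) and Erbb2 in double heterozygous against Isl1 +/- (0.01). With set 5 left out they were Erbb4 in Nipbl +/- against wild type (-0.16), double heterozygous against Nipbl +/- (0.15), the averaged Nipbl effect (-0.06) and the averaged Isl1 effect (0.04); the last was 0.03 with an erythroid covariate. Without Nipbl +/- replicate 2, Erbb4 was at 0.04 in double heterozygous against Nipbl +/- hearts (range over left-out libraries -0.29 to 0.04) and at 0.01 in the averaged Isl1 effect (-0.18 to 0.01). The cause was not tested.

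Same-numbered libraries share only a number: over 54 pairs the median correlation of deviations was 0.03 (17 over 0.1), and 3 of 37 libraries were most like one of their own number. With the replicate number as a block in place of set, Bmp10 was at 0.25 in Nipbl +/- against wild type, Nppb at -0.05 and Gja5 at 0.02 in double heterozygous against wild type, and Erbb2 at 0.00 in double heterozygous against Isl1 +/-; no member was called, and all genes called rose from 391 to 610 in double heterozygous against wild type and from 605 to 993 in the averaged Nipbl effect.

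Over all alternatives, genes called ran from 31 (set 2 left out) to 467 (no set term) in Nipbl +/- against wild type (main 258), from 67 (set 5 left out) to 839 (without Nipbl +/- replicate 2) in double heterozygous against wild type (391), from 12 to 361 against Isl1 +/- (144), from 152 to 1045 for the averaged Nipbl effect (605) and from 0 to 115 for the averaged Isl1 effect (26). The list count of 2 in double heterozygous hearts was 1 to 4 over left-out libraries, that of 2 in Nipbl +/- hearts 2 to 5, and that of 6 for the averaged Nipbl effect 4 to 12. The list counts were added as a result after seeing the data. The lowest count in a library was 78 for Bmp10 and 100 for Nrg1.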
